A study of Mus musculus with 12 samples.

Results

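The genes of antigen presentation by major histocompatibility complex (MHC) class II were followed in bulk total RNA libraries from mouse blood. There are 10 members, chosen by gene name: the classical chains H2-Aa, H2-Ab1 and H2-Eb1, the invariant chain Cd74, the peptide editors H2-DMa, H2-DMb1 and H2-DMb2, the H2-DM regulators H2-Oa and H2-Ob, and the transactivator Ciita. All 10 of 10 were found among the 37583 genes of the deposited table. Ciita had 2 rows, and the one used (ENSMUSG00000022504) is the one that matched the reference names. The other never exceeded a value of 1.12 and was counted only where the members are summed.

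Every library came from wild type mice given a burn combined with cutting of a tendon (burn/tenotomy). Blood was enriched on a microfluidic device, the iChip, and the labels call the product circulating mesenchymal progenitor cells (cMPCs) plus blood cells. The 12 libraries form 3 groups of 4, named 6h, Day1 and Day7 for the time. The labels give no age, sex or strain. They also do not tie replicates to different animals, and the spread behind the p-values may thus be technical. A group without injury was not analysed here. The libraries held 5098395 to 12379041 reads, of which haemoglobin genes took 16.1% to 70.3%, and 7631 to 16647 genes had a read. Pf4, a platelet gene, and Dcn, a gene of mesenchymal cells, had reads in 12 of 12 libraries, whereas Pdgfra, a receptor of mesenchymal cells, had reads in 5. Y-linked genes had reads in 5 libraries (6h replicates 3 and 4, Day1 replicates 2, 3 and 4) and at 0 in the other 7. Values are reads scaled to an effective library size by the authors, with 1 read worth 0.0314 (Day1 replicate 2) to 0.617 (Day7 replicate 3). Low values are therefore least precise in Day7 replicate 3, where a count of 0 reads allows a value of up to 1.85 (3 reads), against 0.0942 in Day1 replicate 2. In 6h replicate 2 that limit is 1.14 and in 6h replicate 1 it is 0.560. These limits cover counting error only.

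MHC class II molecules are dimers of an alpha and a beta chain that show peptides from engulfed proteins to CD4 T cells. Cd74 escorts the dimer to the endosome, where H2-DM exchanges the remnant of Cd74 for antigenic peptides and H2-O, found mainly in B cells, restrains H2-DM. Ciita switches the whole set on by docking to factors bound at a shared upstream module, and in blood the set is carried chiefly by B cells, dendritic cells and a share of monocytes. In bulk RNA, fewer cells of a type and less RNA per cell cannot be told apart.

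The shared module is visible in the mouse promoters and is shown because these genes are known to be switched on through it. RefSeq promoter windows (GRCm38.p6, 250 bases before to 50 after the start) were used for 7 of 10 members, in 8 windows. In 6 of the 8 the letters AAC of the X box, bound by RFX, were followed after 20 to 30 bases by GATTGG of the Y box, bound by NF-Y. The capitals below mark these letters, each stretch is written 5′ to 3′ on the gene's strand, and each lies upstream of the start, outside the transcript.
H2-Aa, chr17:34287861-34287914, minus strand: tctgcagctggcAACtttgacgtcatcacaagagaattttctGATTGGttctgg
H2-Eb1, chr17:34305766-34305818, plus strand: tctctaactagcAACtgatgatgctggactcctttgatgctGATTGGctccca
H2-DMb1, chr17:34153087-34153140, plus strand: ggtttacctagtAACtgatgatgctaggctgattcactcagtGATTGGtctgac
H2-DMb2, chr17:34145116-34145169, plus strand: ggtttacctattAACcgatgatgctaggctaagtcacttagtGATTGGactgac
H2-Oa, chr17:34092293-34092346, plus strand: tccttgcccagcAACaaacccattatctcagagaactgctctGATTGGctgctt
H2-Ob, chr17:34238808-34238858, plus strand: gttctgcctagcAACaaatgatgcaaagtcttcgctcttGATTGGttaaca
The spacing between both motifs was 24 bases in H2-Ob, 26 in H2-Eb1 and 27 in the other 4, and GATTGG began 44 (H2-Oa) to 91 (H2-DMb2) bases before the start. The search covered both strands, where the reverse of GATTGG overlaps the CCAAT box. The spaced pair of motifs was found in 75% of the members' windows and in 2.15% of 32851 promoter windows, drawn from most chromosomes. GATTGG alone was found in 7 of 8 and in 16.1%. The motifs were chosen after the promoters had been read, so these shares are a description and not a test. The stretches of H2-DMb1 and H2-DMb2 are identical at 48 of 54 positions, and the genes themselves are near copies. Of the mapped genes, H2-Oa, H2-DMa, H2-DMb2, H2-DMb1, H2-Ob, H2-Ab1, H2-Aa and H2-Eb1 follow each other on chromosome 17 in that order, whereas Ciita lies on chromosome 16.

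Among themselves the members fell into an abundant and a scarce tier. Levels were compared as deposited value per kilobase of the gene length in the table. The median over 12 libraries was 172 for Cd74, 83.0 for H2-Ab1, 59.6 for H2-Eb1 and 28.6 for H2-Aa, then 5.36 for H2-DMa, 4.88 for H2-DMb2, 4.38 for H2-DMb1, 1.99 for H2-Oa, 1.80 for H2-Ob and 0.793 for Ciita. Per kilobase, Cd74 was above H2-Ab1 in 12 of 12 libraries, by 1.29 ± 0.44 on the log2 scale (SD, n = 12). H2-Aa was likewise above H2-DMa in 12 of 12, by 2.12 ± 0.97 (SD, n = 12), which is the step between the tiers. H2-Ab1 exceeded H2-Eb1 in 11 of 12 libraries (0.55 ± 0.59, SD, n = 12). H2-Eb1 exceeded H2-Aa in 10 of 12 (0.95 ± 1.14, SD, n = 12). These orders held in most libraries, although each mean was smaller than the SD of single libraries. From H2-DMa down, each mean difference between neighbours was also smaller than its SD. The SD describes the spread among libraries, and whether a mean difference departs from 0 was not tested. Of the reads assigned to the members, with both Ciita rows, Cd74 took 37.0% to 56.6% in every library. The mouse H2-Ea row (H2-Ea-ps) had 0 reads in all libraries, and H2-Eb2 had 6 reads in total.

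**Figure D1:**
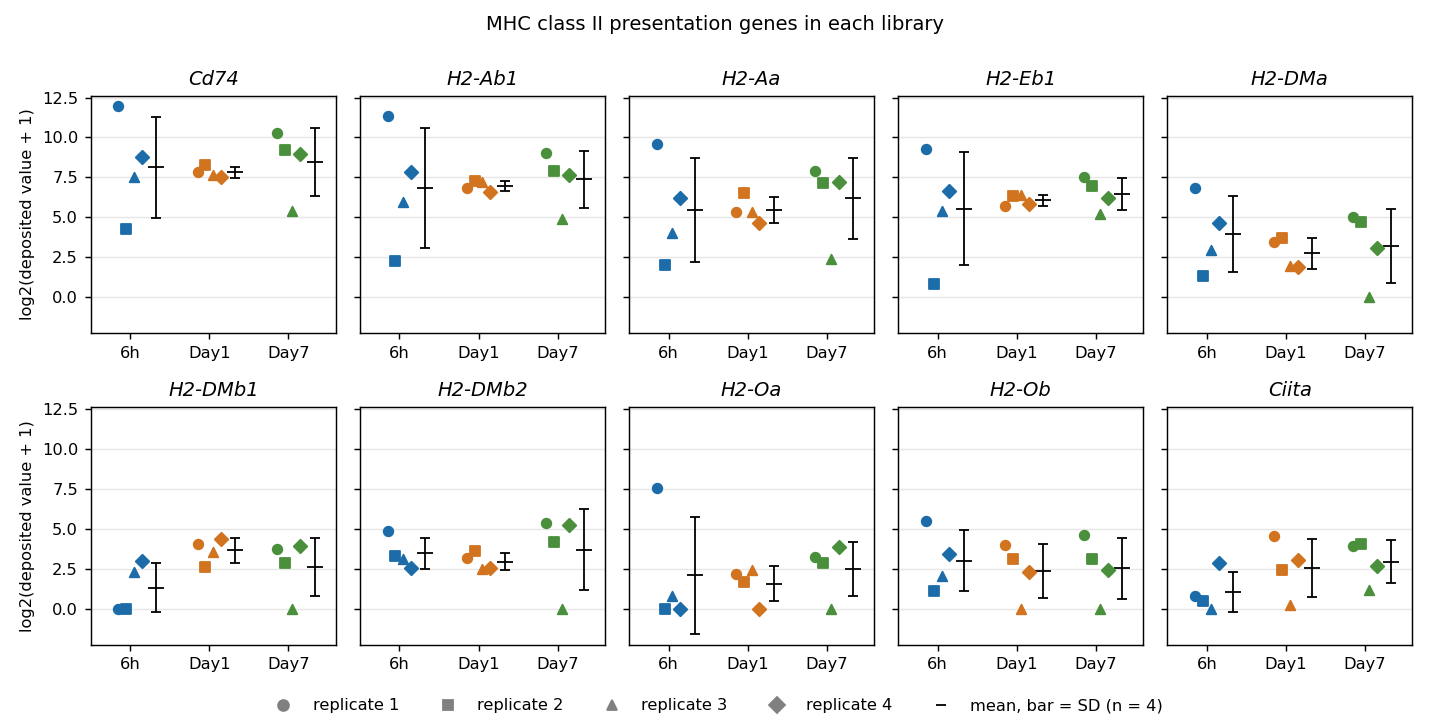
Each panel shows 1 member as log2(deposited value + 1) in the 12 libraries, by time on the horizontal axis. Symbols mark the replicates, and the bar is the mean ± SD of 4 libraries. The abundant members reach their highest point in 6h replicate 1 and are low in 6h replicate 2 and Day7 replicate 3, whereas the 4 Day1 libraries sit close together.

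Values below are deposited values in the order of replicates 1 to 4. Cd74, the invariant chain, was 3942, 18.2, 181 and 445 at 6h, 226, 309, 202 and 182 at Day1, and 1252, 605, 41.3 and 499.9 at Day7. The 6h libraries spanned more than the range of all others, the Day1 libraries lay within it, and no 2 times were separated. The Cd74 value of 6h replicate 1 rests on 21111 reads and that of 6h replicate 2 on 48.

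H2-Ab1, the beta chain of the I-A molecule, followed the same order of libraries at 6h. It was 2545, 3.79, 60.4 and 230 at 6h, 111, 152, 147 and 97.3 at Day1, and 516, 243, 28.4 and 205 at Day7. H2-Aa, its alpha-chain partner, was 763, 3.03, 15.2 and 73.4 at 6h, 39.7, 91.8, 38.6 and 23.98 at Day1, and 239, 144, 4.32 and 151 at Day7. Both chains of I-A were thus highest in 6h replicate 1 and lowest in 6h replicate 2, with H2-Aa nearly as low in Day7 replicate 3. H2-Eb1, the beta chain of I-E, was 621, 0.757, 40.8 and 99.6 at 6h, 52.3, 80.0, 83.7 and 55.4 at Day1, and 186, 122, 36.4 and 73.5 at Day7. Its fall-off in Day7 replicate 3 was the smallest of these chains, at 59 reads against 7 for H2-Aa there.

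The peptide editors were low and uneven. H2-DMa, the alpha chain of H2-DM, was 114, 1.51, 6.76 and 24.3 at 6h, 9.89, 12.2, 2.88 and 2.72 at Day1, and 31.4, 25.3, 0 and 7.65 at Day7. It too peaked in 6h replicate 1 and had 0 reads in Day7 replicate 3. H2-DMb1, a beta chain of H2-DM, was 0, 0, 3.86 and 6.77 at 6h, 15.2, 5.18, 10.4 and 19.7 at Day1, and 12.5, 6.12, 0 and 14.0 at Day7. It broke the pattern, with 0 reads in 6h replicate 1, the library richest in the classical chains. H2-DMb2, the near copy of H2-DMb1, was 27.8, 8.71, 7.72 and 4.86 at 6h, 7.91, 11.3, 4.47 and 4.75 at Day1, and 40.5, 16.8, 0 and 35.9 at Day7. In 6h replicate 1 it held all 149 reads of both beta chains, which puts the H2-DMb1 share at 0% (up to 2.01% from the limit of 3 reads; 95% Wilson interval up to 2.51%). In libraries with reads of both, that share was 33.3% and 58.2% at 6h (replicates 3 and 4), 65.8%, 31.5%, 69.9% and 80.6% at Day1, and 23.5%, 26.7% and 28% at Day7 (replicates 1, 2 and 4). All 4 Day1 shares were above the 3 Day7 shares, a description chosen after the values were seen. Counting error blurs the nearest of them, with 95% Wilson intervals of 27.7% to 35.6% in Day1 replicate 2 and 21.4% to 35.7% in Day7 replicate 4. Since the authors' counting could split reads between these copies, both genes are uncertain.

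H2-Oa, the alpha chain of H2-O, was 185, 0, 0.724 and 0 at 6h, 3.46, 2.17, 4.32 and 0 at Day1, and 8.25, 6.12, 0 and 13.6 at Day7. Of its 1340 reads, 990 came from 6h replicate 1, and 4 libraries had none. H2-Ob, its beta chain, was 42.6, 1.14, 3.14 and 9.71 at 6h, 14.5, 7.41, 0 and 3.85 at Day1, and 22.9, 7.66, 0 and 4.32 at Day7. The excess in 6h replicate 1 was thus far smaller for the beta than for the alpha chain of H2-O. Ciita, the transactivator, was 0.747, 0.379, 0 and 6.17 at 6h, 22.0, 4.33, 0.152 and 7.24 at Day1, and 13.8, 15.3, 1.23 and 5.32 at Day7. Its highest library was Day1 replicate 1. In 6h replicate 1 it rested on 4 reads although Cd74 and the classical chains were at their highest there. The Ciita row left aside had 6 reads in that library, its highest value (1.12).

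Summed over the members, with both Ciita rows, class II reads made up 2.43% of the reads outside haemoglobin in 6h replicate 1 (95% Wilson interval 2.41% to 2.45%). They made up 0.00500% in 6h replicate 2 (99 reads, interval 0.00411% to 0.00609%) and 0.00549% in Day7 replicate 3 (181 reads, interval 0.00475% to 0.00635%). The other libraries lay between 0.0829% and 0.390%. Intervals cover counting error only.

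No member passed the test between any of the times. By limma's moderated test on log2(value + 1) over 11211 tested genes, with a Benjamini-Hochberg adjusted p under 0.05 as the threshold, 0 of 10 members passed in each of the 3 comparisons, where all 10 were tested. Over all tested genes 0.169% were called for Day1 versus 6h, 5.78% for Day7 versus Day1 and 0.883% for Day7 versus 6h. The F test for any change among the times called 0 members and 2.55% of all genes. At an unadjusted p under 0.05, 1 member passed for Day1 versus 6h and 0 in the other comparisons, against 11.2%, 29.1% and 18% of all genes in the same order. Groups without overlap were found for 0 members in each comparison, against 6.4%, 22.9% and 5.83% of all genes. On the recovered reads, edgeR's quasi-likelihood test and DESeq2 also called 0 members in each comparison. Their backgrounds were 0.0803%, 0.00892% and 0.749% in edgeR, and 1.72%, 15.8% and 9.45% in DESeq2.

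Differences are later minus earlier on log2(value + 1), where the added 1 shrinks the changes of scarce genes. Cd74 differed by -0.31 for Day1 versus 6h, with a 95% interval of -2.75 to 2.13 (limma adjusted p = 0.948), by 0.66 for Day7 versus Day1 and by 0.35 for Day7 versus 6h. H2-Ab1 differed by 0.13 (interval -2.42 to 2.68, limma adjusted p = 0.978), 0.40 and 0.53 in the same order. Intervals this wide hold changes of several fold in either direction, so a change of that size was not detectable with these libraries. H2-DMb1 had the largest difference between Day1 and 6h, 2.32 (SE 0.97, interval 0.32 to 4.32, limma adjusted p = 0.391). It differed by -1.01 for Day7 versus Day1 and by 1.31 for Day7 versus 6h. With each library left out in turn, the Day7 versus Day1 difference of H2-DMb1 ran from -1.44 to -0.14, the latter without Day7 replicate 3, and it was -0.053 with a term for Y-linked reads and -2.42 scaled to all reads. Its Day7 versus 6h difference ran from 0.87, without 6h replicate 1 or 2, to 2.19, without Day7 replicate 3. Ciita differed by 1.52 for Day1 versus 6h (limma adjusted p = 0.566), by 0.39 for Day7 versus Day1 and by 1.91 for Day7 versus 6h (limma adjusted p = 0.306). The other 6 members lay between -1.19 (H2-DMa) and 0.54 (H2-Eb1) for Day1 versus 6h.

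The members' median difference was -0.15 for Day1 versus 6h, beside 0.52 over all genes. For Day7 versus Day1 it was 0.43, with 9 of 10 differences above 0, beside -0.48 over all genes, and for Day7 versus 6h it was 0.47 beside 0.13. The sign of these medians depends on the scale. With libraries scaled to all reads the members' median was 1.15 for Day1 versus 6h beside 1.57 over all genes, and -1.11 for Day7 versus Day1 beside -1.78, with 0 of 10 differences above 0. H2-DMb1 was called higher at Day1 than at 6h on that scale (limma adjusted p = 0.043), where 1207 genes were called in all. Leaving out 6h replicate 1 moved the median for Day1 versus 6h to 1.34, and leaving out 6h replicate 2 moved it to -1.18.

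**Figure D2:**
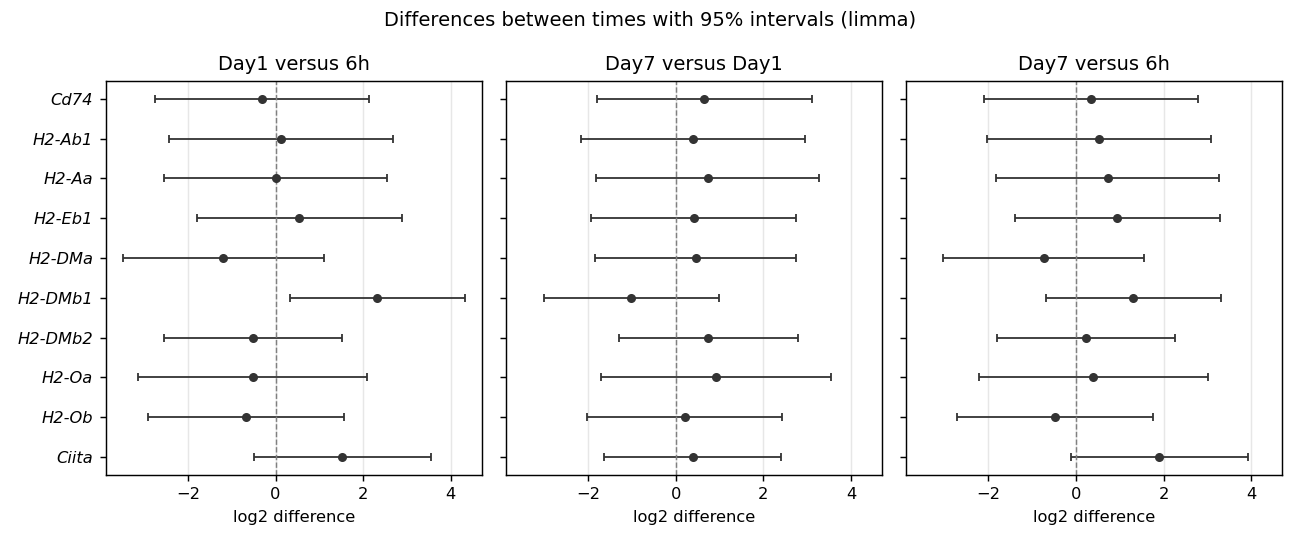
Log2 differences of the 10 members in the 3 comparisons, with 95% intervals from limma. All intervals cross 0 except that of H2-DMb1 for Day1 versus 6h (0.32 to 4.32), which did not pass after adjustment.

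The levels were then set beside Cd79a, part of the B cell antigen receptor, and Csf1r, the receptor for the monocyte growth factor. Cd79a was 121, 26.1, 4.10 and 58.7 at 6h, 27.8, 65.9, 15.7 and 13.4 at Day1, and 103, 44.8, 0.617 and 28.6 at Day7. Csf1r was 2.05, 0, 3.86 and 0.360 at 6h, 5.19, 18.9, 11.4 and 20.4 at Day1, and 17.8, 1.15, 0 and 25.6 at Day7. Cd79a was thus high in 6h replicate 1, like the class II chains, whereas Csf1r was low there. In Day7 replicate 3 Cd79a was almost absent (1 read) and Csf1r had 0 reads. The class II chains were low but present there, with Cd74 at 41.3, H2-Eb1 at 36.4 and H2-Aa at 4.32.

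Across the 12 libraries, 5 of the 10 members correlated with Cd79a and 1 with Csf1r past the threshold. Correlations were computed on log2(value + 1) for 20 relations, with permutation tests (100000 resamples, two-sided) and p-values adjusted over the 20. With Cd79a, 5 of 10 members passed by Pearson's r and 7 by Spearman's rho. As background, 1.46% of the other tested genes had an r with Cd79a at or above the lowest that passed among the members, and 0.624% had such a rho. With Csf1r the same shares were 2.56% and 3.47%. Scaled to all reads, 7 members passed by r with Cd79a and 2 with Csf1r, beside 6.98% and 34% of the other tested genes. H2-DMa had r = 0.83 (permutation p = 0.00064, adjusted p = 0.0128) and rho = 0.90 (permutation p = 0.00019, adjusted p = 0.0028). H2-DMb2 and H2-Aa had r = 0.79 and 0.78, H2-Ob had r = 0.78, and their adjusted permutation p was 0.0146 in each. Cd74 had r = 0.69 (permutation p = 0.0135, adjusted p = 0.045) and rho = 0.87 (permutation p = 0.00053, adjusted p = 0.0028). H2-Ab1 and H2-Eb1 passed by rho alone (0.87 and 0.80, adjusted permutation p = 0.0028 and 0.00857), with r = 0.61 and 0.42. H2-Oa (r = 0.57), Ciita (0.41) and H2-DMb1 (0.20) passed by neither.

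These relations rest in part on single libraries. Without the 2 libraries farthest from the median of Cd79a (6h replicate 3 and Day7 replicate 3), 2 members passed by r, H2-DMa (0.89) and H2-Ob (0.81), and Cd74 had 0.70. Leaving out Day7 replicate 3 alone left 0 passing by r and 6 by rho, and the call for Cd74 by r was lost in 9 of 12 runs that left out 1 library. With the mean of each time subtracted, 0 passed by r and 5 by rho, although r stayed at 0.85 for H2-DMa and 0.71 for Cd74. Among the 7 libraries without Y-linked reads, 2 passed by r and 7 by rho. The 5 libraries with them are too few for a correlation. The outlying point is 6h replicate 2, where Cd79a stood at 26.1 while Cd79b, its partner in the receptor, had 0 reads and Cd74 was at 18.2. Cd74 per unit of Cd79a was 0.696 in that library and 4.69 to 67.0 in the other 11.

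With Csf1r, 1 of 10 members passed, H2-DMb1 (r = 0.73, permutation p = 0.00707, adjusted p = 0.0283, and rho = 0.72, permutation p = 0.0108, adjusted p = 0.0269). Without the 2 libraries farthest from the median of Csf1r (6h replicate 2 and Day7 replicate 3), both genes' only shared zeros, its r was 0.52 (permutation p = 0.114), so the call rests on them. By r it was also lost when any of 6h replicate 2, Day1 replicates 3 and 4, or Day7 replicates 1, 3 and 4 was left out, and by rho when any of 6h replicates 2 and 3, Day1 replicate 4, or Day7 replicates 3 and 4 was left out. The other 9 members had r of 0.12 (H2-DMa) to 0.45 (H2-DMb2). A difference between the relations with Cd79a and with Csf1r was not tested.

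**Figure D3:**
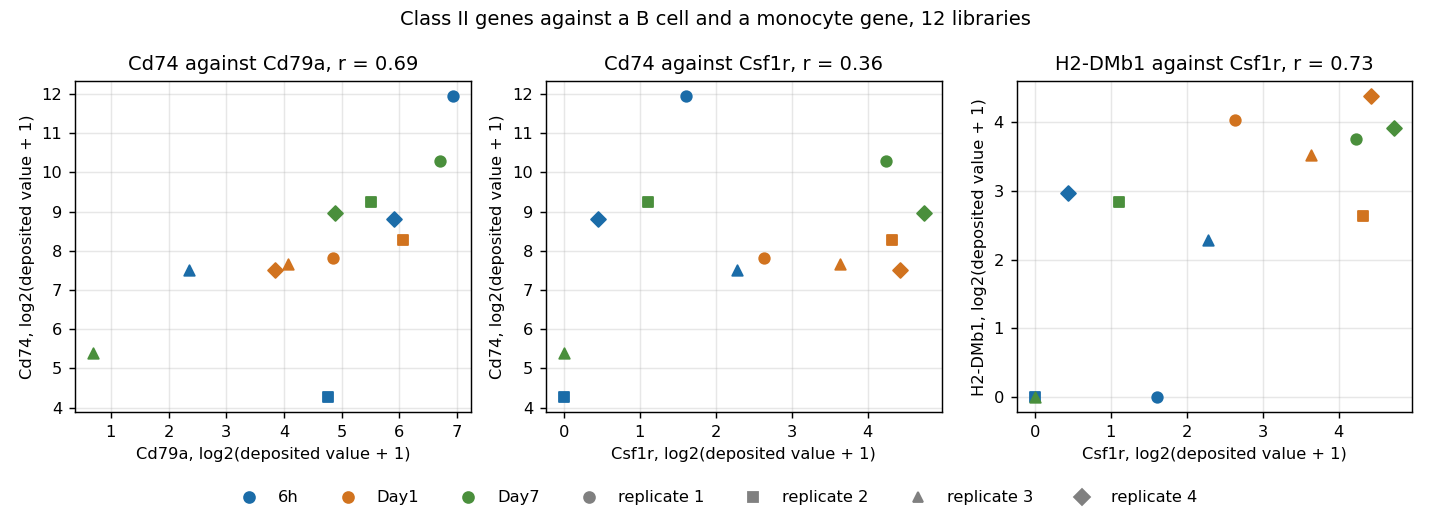
Scatter of log2(deposited value + 1) over 12 libraries: Cd74 against Cd79a (r = 0.69), Cd74 against Csf1r (r = 0.36) and H2-DMb1 against Csf1r (r = 0.73). Colours mark the time and symbols the replicate. In the first panel 6h replicate 2 lies below the others at the same Cd79a, and in the third the points at 0 on both axes are 6h replicate 2 and Day7 replicate 3.

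Ratios of the abundant members to Cd79a or Csf1r within a library, log2((member + 1)/(other gene + 1)), were compared between times by an exact permutation test of 4 against 4, which cannot go below p = 0.0286. None of 24 ratios passed after adjustment, and none reached an unadjusted p under 0.05. Given that floor, 1 ratio alone could not pass after adjustment over the 24, so the adjusted result says little here. With a pseudocount of 0.25 or on recovered reads, the Cd74 to Csf1r ratio for Day1 versus 6h reached the floor (exact permutation p = 0.0286, adjusted p = 0.343). The log2 ratio of H2-Aa to Cd79a was 0.75 ± 0.36 at Day1 and 1.74 ± 0.47 at Day7 (SD, n = 4), a difference of 0.98 (exact permutation p = 0.0571, adjusted p = 0.457). That of Cd74 to Cd79a was 3.14 ± 2.64 at 6h, 3.12 ± 0.68 at Day1 and 4.03 ± 0.50 at Day7 (SD, n = 4), and its Day7 versus Day1 difference was 0.91 (exact permutation p = 0.0857, adjusted p = 0.457). The log2 ratio of Cd74 to Csf1r was 7.04 ± 2.81 at 6h, 4.07 ± 0.86 at Day1 and 5.96 ± 1.64 at Day7 (SD, n = 4). It was lower by -2.97 at Day1 than at 6h and higher by 1.89 at Day7 than at Day1 (exact permutation p = 0.0571 for each, adjusted p = 0.457), while Csf1r itself differed by 2.67 and -1.23 in limma (adjusted p = 0.341 and 0.423). The first of these differences in ratio was -1.88 without 6h replicate 1 and -3.90 without 6h replicate 2. The second was 1.16 without Day7 replicate 2 and 2.46 without Day7 replicate 4.

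The classical chains and Cd74 moved together from library to library. Over 45 pairs of members, a set of relations added after the values were seen, 23 passed by r and 26 by rho (permutation tests, adjusted over the 45). Over all pairs of tested genes, 3.81% had an r at or above the lowest that passed among the members' pairs, and 5.11% had such a rho. All 6 pairs of H2-Aa, H2-Ab1, H2-Eb1 and Cd74 passed, with r from 0.86 (H2-Aa with H2-Eb1) to 0.98 (H2-Ab1 with Cd74, adjusted permutation p = 7.5e-05). Their lowest r was 0.88 without 6h replicates 1 and 2, 0.93 scaled to all reads and 0.86 with the mean of each time subtracted. H2-DMa had r = 0.91 with Cd74 and 0.91 with H2-Ob. H2-DMb1 and Ciita passed in 0 of their 9 pairs each by either measure, and H2-DMb1 with H2-Oa was the lowest pair of all (r = -0.08). H2-DMb1 and Ciita had r = 0.62 with each other (adjusted permutation p = 0.0617).

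**Figure D4:**
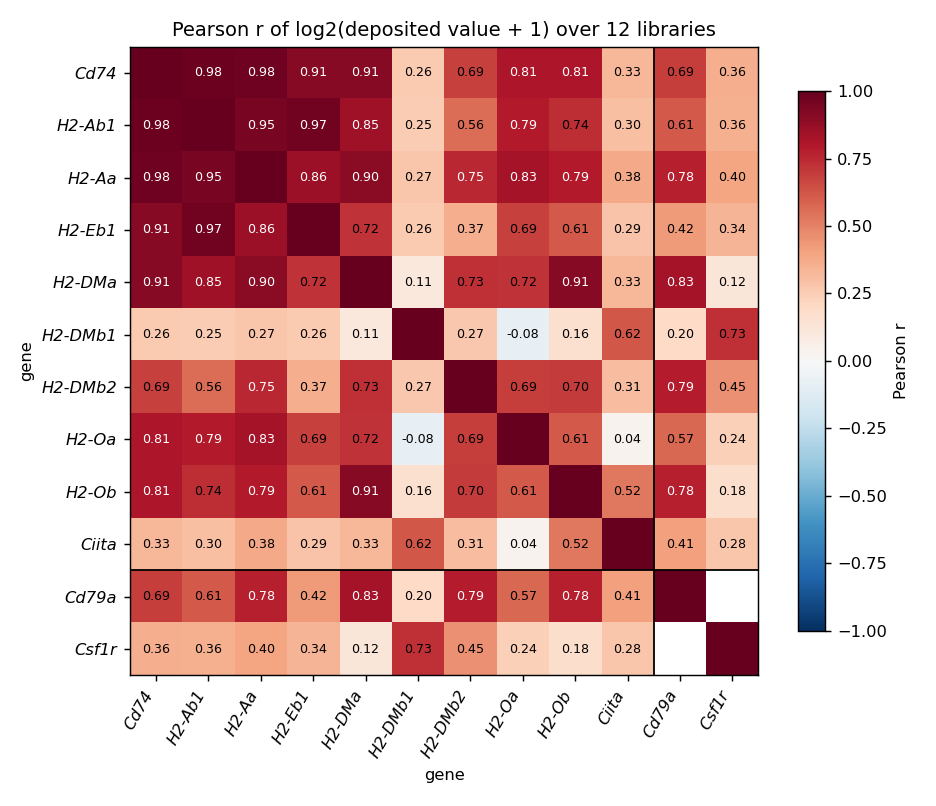
Pearson's r of log2(deposited value + 1) over 12 libraries between members, and of each member with Cd79a and Csf1r. The block of Cd74, H2-Ab1, H2-Aa and H2-Eb1 holds r of 0.86 to 0.98, whereas r of H2-DMb1 with other members reaches at most 0.62, with Ciita.

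Genes outside the set were ranked by r with the mean log2 level of H2-Aa, H2-Ab1, H2-Eb1 and Cd74 over the 12 libraries, as a description. The first 10 of 11201 were Dnmt3a, a DNA methyltransferase (0.93), 2010001M09Rik (0.93), named Mzb1 in current references, Adcy6, an adenylyl cyclase (0.91), Psmb8, an immunoproteasome subunit whose gene lies among the class II genes (0.91), Ighm, the immunoglobulin mu chain (0.90), Igkc, the kappa chain (0.90), Ptprcap (0.90), Abhd12 (0.90), Itpkb, an inositol trisphosphate kinase (0.89), and Tec, a tyrosine kinase (0.89). Each was highest in 6h replicate 1 except Itpkb, which was highest in Day7 replicate 2. Without 6h replicates 1 and 2 their r ran from 0.58 (Igkc) to 0.90 (2010001M09Rik). Ighm was 1240, 3.03, 43.7 and 139 at 6h, and Igkc was 1633, 3.79, 50.7 and 126, with the same order of libraries as Cd74. Cd79a itself ranked 484 with r = 0.65, which was 0.93 without 6h replicates 1 and 2. Of the 100 genes most alike, 4 were on the B cell list, 1 (Cd274) was on the co-stimulation list and 0 were on the monocyte, dendritic cell, T cell, neutrophil or platelet lists. The lists hold 17, 3, 14, 12, 11, 9 and 10 tested genes in the order B cell, co-stimulation, monocyte, dendritic cell, T cell, neutrophil and platelet. Their median r was 0.498, 0.665, 0.411, 0.363, 0.508, 0.338 and 0.397 in the same order, beside -0.020 over all 11201 genes. By the median, the likeness was thus not particular to the B cell list, and the T cell list stood as high.

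Markers of the cells that could carry class II moved with the levels in part. The summed value of the 10 members, with both Ciita rows, was 8242, 37.5, 319 and 899.9 at 6h, 502, 676, 494 and 397 at Day1, and 2324, 1190, 112 and 1009 at Day7. The B cell list (19 genes) summed to 1821, 35.2, 85.5 and 388 at 6h. It lay between 145 and 514 at Day1 and between 64.8 and 708 at Day7. In 6h replicate 1 Ighm (1240) and Ly6d (300.2) were at their highest, yet Cd79b stood at 2.24 and Ms4a1 at 0.560, and 8 of the 20 B cell rows had 0 reads. In Day7 replicate 3, 14 of the 20 were at 0. The dendritic cell list (14 genes) summed to 422 in 6h replicate 1 and 308 in Day1 replicate 1, and to 0.379 to 129 elsewhere. Of the 422, Cd8a, which T cells share, made up 194 and Siglech, a plasmacytoid dendritic cell gene, 122, whereas Itgax had 0 reads. T cell genes (17), which carry little class II in mice, summed to 1178 in 6h replicate 1 and 4.93 to 97.0 elsewhere, with Cd3d at 224. The monocyte list (18 genes) ranged in sum from 12.8 to 147 at 6h, from 71.3 to 124 at Day1 and from 172 to 192 at Day7. In Day7 replicate 3 most of the sum of 192 was F13a1 (148), with Csf1r at 0. The part of any of these cells in the class II levels was not tested.

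**Figure D5:**
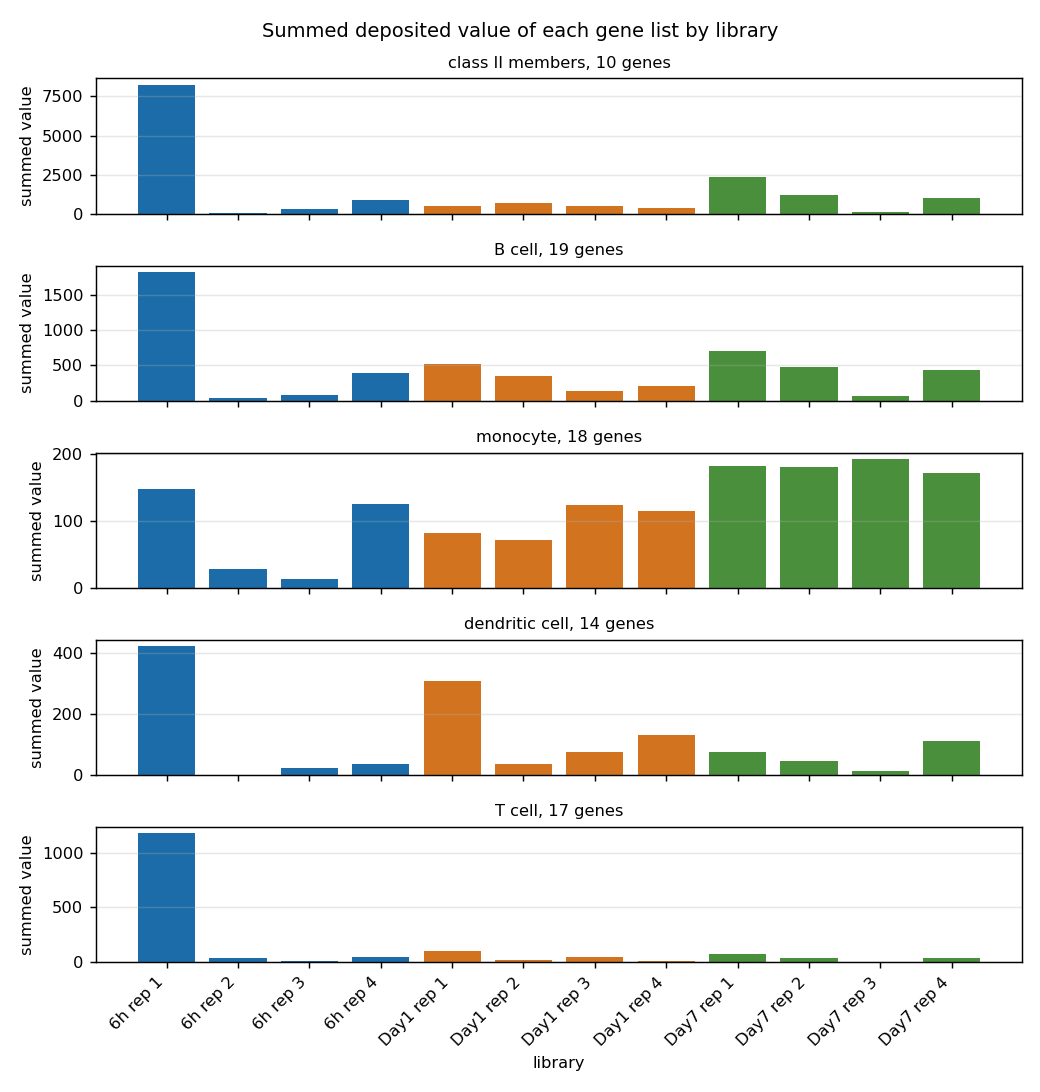
Summed deposited value in each of the 12 libraries for the 10 class II members (with both Ciita rows) and for the B cell, monocyte, dendritic cell and T cell lists. Each panel has its own axis from 0. 6h replicate 1 is the highest bar of the class II (8242), B cell (1821), dendritic cell (422) and T cell (1178) panels but not of the monocyte panel.

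Few genes of the rest of the pathway passed limma's threshold between times. Of 17 tested regulators, among them Rfxap and Rfxank of RFX, the NF-Y subunits and the interferon-gamma pathway, 0 passed in each comparison. Irf8, among the same regulators, was 193, 1.51, 5.31 and 31.8 at 6h, 248, 11.4, 31.8 and 12.2 at Day1, and 15.6, 11.1, 0 and 6.32 at Day7. It shared the peak in 6h replicate 1 but had a second one in Day1 replicate 1, where Ciita was highest. Of 17 antigen processing genes, 2 rose and 0 fell from Day1 to Day7, and 0 passed in the other comparisons. Over all tested genes 2.19% rose and 3.59% fell from Day1 to Day7. Ap2m1, a clathrin adaptor subunit, was 10.4, 20.3, 23.1 and 12.4 at Day1 and 80.35, 100.1, 105 and 131 at Day7, a log2 difference of 2.63 (SE 0.74, limma adjusted p = 0.0415). March8, a membrane ubiquitin ligase, was 18.5, 13.4, 4.47 and 8.06 at Day1 and 24.6, 35.2, 315 and 131 at Day7 (2.86, SE 0.86, limma adjusted p = 0.0499). It was highest in Day7 replicate 3, where class II was lowest. Ctsb, the most abundant endosomal protease of that list, was also highest in that library (7296). Of 3 tested co-stimulation genes 0 passed.

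Among the marker lists, 0 of 17 B cell, 0 of 14 monocyte and 0 of 11 T cell genes passed in any comparison. Of 12 dendritic cell genes 1 fell from Day1 to Day7, Siglech (-4.54, SE 1.17, limma adjusted p = 0.0328), which was 185, 11.96, 34.9 and 51.7 at Day1 and 0.344, 0.191, 0 and 8.65 at Day7. Of 9 neutrophil genes 3 rose from Day1 to Day7 and 1 from 6h to Day7, and of 10 platelet genes 6 and 4 rose in those comparisons. From 6h to Day7, 0.607% of all genes rose and 0.277% fell. By limma on the deposited scale, some of these blood cell genes passed and no class II member did. Over all genes 0.169% passed for Day1 versus 6h, 5.78% for Day7 versus Day1 and 0.883% for Day7 versus 6h. The 0 of 10 members is near these shares and does not set class II apart from other genes. Whether the differences themselves differ was not tested. The calls between Day1 and Day7, among them Ap2m1 and March8, depend on scale and tool. Of all tested genes, 245 were called higher at Day7 here. That count was 10 scaled to all reads, 21 scaled to reads outside haemoglobin and 0 in edgeR, but 520 in DESeq2. Fitting Y-linked reads alongside time left 0 genes called in that comparison. For Day7 versus 6h, 68 called higher became 0 scaled to all reads, 58 in edgeR and 276 in DESeq2.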

How the data were processed

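Total RNA libraries were made with the Seqwell Rapid kit, per the labels' protocols. The submitters' processing notes name STAR 2.7.10, HTSeq 2.0.1 and mm9. Neither the annotation nor the scaling step is given in the sources used here. Deposited values, called CPM by the authors, are a signal: column sums run from 351981 to 5611150, and 100% of values are whole multiples of 1 read within 0.001 reads. Whole reads were recovered from them and used in the count tests.

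Members and lists were chosen with earlier results of these data known. A gene was tested if 4 or more libraries had a value of 1 or more (11211 genes) with limma 3.58.1 (trended variance, log2(value + 1), time as the sole factor, all 12 libraries) in R 4.3.3. The p-values were adjusted by Benjamini-Hochberg over all of them at 0.05. Alternatives included edgeR 4.0.16 and DESeq2 1.42.0 on recovered reads, other pseudocounts, filters and scales, and each library left out. Scripts were tested on simulated data. The genes named are the members, Cd79a, Csf1r, the 10 genes most like the classical chains and, per list, at most the 4 with the highest mean plus those that passed. Cd79b, Ms4a1, Cd3d, Itgax, Pf4, Dcn and Pdgfra were named after their values were seen where they fall outside this rule. Promoter stretches come from RefSeq (GRCm38.p6), no coordinates were moved between builds, and promoters of H2-Ab1, Cd74 and Ciita were not used here.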

Additional observations from a re-analysis of the deposited data

Results flagged for a closer look

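Each gene's 4 libraries of a time were screened for 1 value far from the rest, by Dixon's ratio against its 95% critical value. In 36 such groups (the 10 members, Cd79a and Csf1r at 3 times) 7 were marked. The screen used deposited values without logs, whereas the critical value assumes normally distributed values, and genes of the same library vary together. The count of 7 thus has no chance rate beside it and is a description. Of the 7, 6 lie in 6h replicate 1. There Cd74 stood at 3942 (next highest at 6h 445), H2-Ab1 at 2545 (230.2), H2-Aa at 762.7 (73.37) and H2-Eb1 at 621.4 (99.57). H2-DMb2 stood at 27.82 (8.71) and H2-Oa at 184.8 (0.7242). The 7th is Ciita in 6h replicate 4, at 6.174 (next highest 0.7468). H2-DMa (114, next 24.3) and H2-Ob (42.6, next 9.71) were also highest in 6h replicate 1 but were not marked.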

How the results depend on the processing

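Of 947 values recomputed under alternatives, 837 were kept, 53 reversed, and the rest crossed a threshold or moved. Kept means the same direction and side of the threshold, or for counts a value near the main count. The lowest r among pairs of the classical chains and Cd74 was entered as kept under each alternative, without a rule. The members called stayed at 0 in each comparison and alternative except Day1 versus 6h scaled to all reads (1, H2-DMb1). All-gene counts ranged more widely: 19 for Day1 versus 6h became 0 (pseudocount 4) to 1207 (all reads), 648 for Day7 versus Day1 became 0 (term for Y-linked reads) to 3963 (all reads), and 99 for Day7 versus 6h became 0 (all reads) to 811 (array weights). The replicate numbers did not pair the libraries (same-number correlations -0.231 to 0.125, 1 of 12 over 0.1, and 1 library closest to its own number). With the replicate block 0 members were called, and 45, 571 and 156 genes in the 3 comparisons in the order above.

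Differences of members, none of which passed, turned sign as follows, and the cause was not tested. Scaled to all reads and to reads outside haemoglobin in turn, Cd74 was 1.03 and 0.56 for Day1 versus 6h, -1.48 and -1.20 for Day7 versus Day1, and -0.44 and -0.64 for Day7 versus 6h. H2-Ab1 was -1.71 and -1.45 for Day7 versus Day1 and -0.29 and -0.43 for Day7 versus 6h, and Ciita was -1.02 and -0.90 for Day7 versus Day1. With array weights Cd74 was 0.58 for Day1 versus 6h. With median-of-ratios scaling Cd74 was -0.18 for Day7 versus 6h and H2-Ab1 -0.017 for Day7 versus Day1. A pseudocount of 4 gave -0.030 for H2-Ab1 for Day1 versus 6h, and a term for Y-linked reads gave -0.12 for Ciita for Day7 versus Day1. In edgeR and DESeq2 in turn, Cd74 was -0.76 and -1.48 for Day7 versus 6h, and H2-Ab1 was -2.47 and -2.65 for Day1 versus 6h and -1.34 and -2.07 for Day7 versus 6h. In DESeq2 Ciita was -0.41 for Day7 versus Day1.

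With each library left out, Cd74 ranged from -1.60 to 0.97 for Day1 versus 6h and -0.94 to 1.62 for Day7 versus 6h. H2-Ab1 ranged from -1.40 to 1.62, -0.14 to 1.24 and -0.99 to 2.03 for Day1 versus 6h, Day7 versus Day1 and Day7 versus 6h, and Ciita from -0.39 to 1.05 for Day7 versus Day1. The log2 ratio of Cd74 to Cd79a ranged from -1.24 to 0.64 for Day1 versus 6h and -0.33 to 1.55 for Day7 versus 6h, and that of Cd74 to Csf1r from -2.01 to 0.011 for Day7 versus 6h.

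Members passing by r with Cd79a were 2 without the 2 farthest libraries, 0 with time means subtracted, 2 without libraries with Y-linked reads, and 0 to 7 with each library left out. With Csf1r these were 0, 0, 0 and 0 to 1, and 2 scaled to all reads. Without the 2 farthest libraries r with Csf1r was -0.13 for H2-Aa, -0.24 for H2-Ab1, -0.28 for H2-Eb1, -0.53 for H2-DMa (-0.047 with a pseudocount of 4), -0.045 for H2-Oa, -0.30 for H2-Ob and -0.25 for Cd74, and r of H2-DMb1 with Cd79a was -0.40. With each library left out r with Csf1r ranged from -0.16 to 0.26 for H2-DMa, -0.031 to 0.49 for H2-Eb1 and -0.040 to 0.33 for H2-Ob, and r of H2-DMb1 with Cd79a from -0.22 to 0.48. Depth limits the scarce members most: 5 of 10 members had 0 reads in Day7 replicate 3.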
